A study of Mus musculus with 16 samples.

Results

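Interferon-stimulated genes are the genes that a cell switches on when interferon reaches its receptor. Here 40 of them were followed in whole mouse dorsal skin. They were chosen by symbol, and all 40 were found among the 55359 Ensembl identifiers of the count tables. All 40 also had enough reads to be tested in every comparison, next to 17406 genes in the fit over all 16 mice. The skin came from mice labelled WT C57Bl/6 (C57Bl/6N in the study's text), aged 8 weeks, with hair follicles at rest (telogen). There were 4 groups of 4 mice: UVB-irradiated females, no-UVB females, UVB-irradiated males and no-UVB males. Irradiation was given 3 times, and tissue was collected 6 h after the final dose. The labels only number the samples of a group, the study's text counts them as mice, and p-values measure the spread between them.

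Interferons of type I and type III signal through the kinases JAK1 and TYK2 to a complex with STAT2 and IRF9 that binds the interferon-stimulated response element (ISRE) before the start of a target gene. Interferon gamma, the type II interferon, signals through JAK1 and JAK2 to the gamma-activated site (GAS). The targets include proteins that bind or degrade viral RNA, the ubiquitin-like protein ISG15 and the enzymes around it, sensors of foreign RNA and GTPases that attack the vacuoles of intracellular microbes. In skin these genes are known from viral infection, lupus and the response to damaged nucleic acid. The 40 genes comprised 16 antiviral effectors, 2 RNA sensors, 3 transcription factors, 7 genes for ISG15, ubiquitin or ADP-ribose modification, 5 GTPases and 7 other interferon-induced genes.

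The ISRE core could be read directly from the genome before the start sites of 14 of the 40 genes. The letters searched were GAAANNGAAA or the reverse complement TTTCNNTTTC, within the 250 bases before the start site of each gene's canonical transcript in GRCm39. This was 35% of the genes, against 3.23% of the 14960 protein-coding genes tested. The GAS letters, TTCNNNGAA, which are their own reverse complement, lay before 5 of the 40 genes (12.5%) and before 6.68% of the protein-coding genes tested. *Bst2* and *Zbp1* held both. A match of letters is a description and was not tested as a binding site. The stretches below show 8 of the genes on which the results turn, each read 5′ to 3′ on the strand of its gene with 20 bases on either side, or fewer where the window ends at the start site, and the ISRE cores are in capitals. *Isg15* and *Irgm1* carry overlapping cores close to the start site, *Usp18* carries a core in each orientation, and *Ifit1* and *Ifit3* carry paired cores.
*Isg15* (chr4:156285312-156285373, minus strand): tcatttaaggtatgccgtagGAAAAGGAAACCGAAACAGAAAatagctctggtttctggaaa
*Usp18* (chr6:121222762-121222835, plus strand): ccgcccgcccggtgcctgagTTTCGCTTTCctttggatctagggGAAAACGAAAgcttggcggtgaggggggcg
*Ifit1* (chr19:34618165-34618233, plus strand): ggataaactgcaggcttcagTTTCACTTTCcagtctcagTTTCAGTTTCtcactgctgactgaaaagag
*Ifit3* (chr19:34560753-34560836, plus strand): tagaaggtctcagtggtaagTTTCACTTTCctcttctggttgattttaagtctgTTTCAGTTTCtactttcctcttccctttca
*Oas3* (chr5:120915770-120915819, minus strand): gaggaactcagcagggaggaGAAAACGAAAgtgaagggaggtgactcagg
*Rsad2* (chr12:26506542-26506591, minus strand): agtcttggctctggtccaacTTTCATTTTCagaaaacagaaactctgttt
*Stat2* (chr10:128106125-128106174, plus strand): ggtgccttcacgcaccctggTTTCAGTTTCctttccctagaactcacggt
*Irgm1* (chr11:48762248-48762297, minus strand): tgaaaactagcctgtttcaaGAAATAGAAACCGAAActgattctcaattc

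The matching stretch of *Ifit3b* (chr19:34585149-34585232) reads the same as that of *Ifit3*, its near-identical neighbour, letter for letter. The deposited counts do not show how many reads fitted both *Ifit3* and *Ifit3b*, so the level of each is uncertain. The first base of a core lay at positions -207 to -19 from the start site. By role, 8 of the 16 antiviral effectors, 3 of the 7 modifier genes, 1 of the 5 GTPases, 1 of the 3 transcription factors, 1 of the 7 other genes and 0 of the 2 sensors held an ISRE core in this window. No core with these letters lay in the windows of *Mx1*, *Irf7*, *Gbp2* or *Xaf1*.

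**Figure D1:**
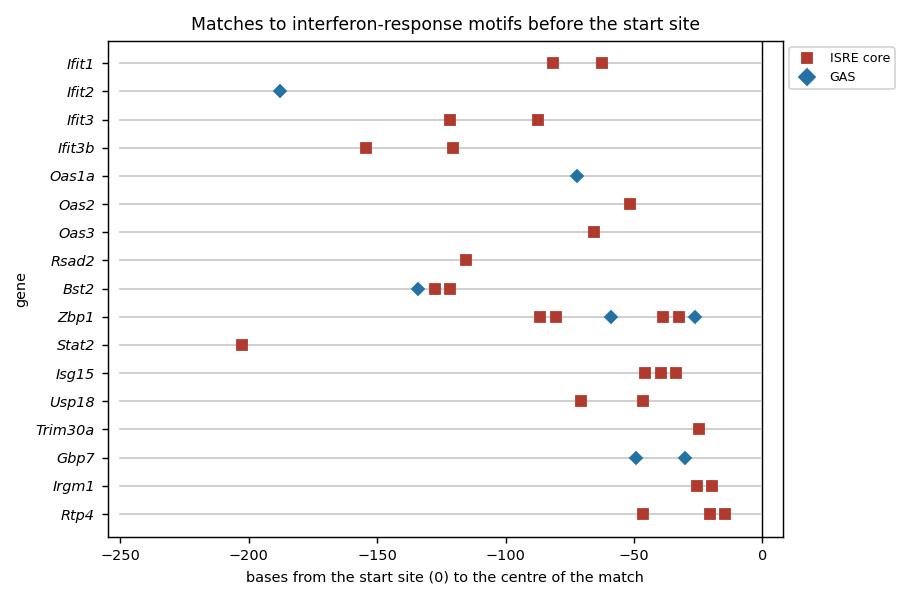
Position of each ISRE core (squares) and GAS (diamonds) within the 250 bases before the start site, in bases on the horizontal axis, for the 17 of 40 genes that hold either (vertical axis). *Isg15*, *Irgm1*, *Rtp4*, *Zbp1* and *Trim30a* have cores within 50 bases of the start, and *Stat2* has its core at position -207.

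Each library held 16495776 to 33404831 reads on genes (median 21767339). Levels are given as CPM, a count relative to all reads on genes of its library after TMM scaling, and for a comparison between genes as CPM per kilobase of exon. The keratin gene *Krt14* stood at 991 to 5684 CPM in the 16 mice. Averaged over the 16 mice, *Ifi27l2a* was highest at 46.4 CPM per kilobase, followed by *Gbp2* at 34.8, *Bst2*, a tether for budding virus, at 25.7, *Lgals3bp* at 19.2 and *Isg15* at 15.6. *Ifi44* was lowest at 0.502, below *Mx2* at 0.712 and *Herc6*, an ISG15 ligase, at 0.768. No gene of the 40 was at or under 3 counts in all mice of a group.

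Unirradiated females were not alike. For 31 of the 40 genes (77.5%), mice 3 and 4 of this group were both above mice 1 and 2, an order that 20.3% of all tested genes showed. The 4 highest ratios between the means of the later and the earlier pair were those of *Oasl1*, *Oas3*, *Oas2* and *Oas1a*, of the 2′-5′ oligoadenylate synthetase family, most members of which sense double-stranded RNA, while *Oasl2* of the same family had a ratio of 2.05. *Oasl1* stood at 3.21, 2.22, 13.2 and 13.1 CPM in no-UVB female mice 1 to 4, a ratio of 4.84. *Oas3* stood at 5.28, 7.57, 22.2 and 20.9, a ratio of 3.35, and *Irf7*, the factor that amplifies type I interferon signalling, at 25.0, 29.4, 69.3 and 73.5, a ratio of 2.62. *Oas3* and *Irf7* thus split this group into a low pair, about level with males, and a high pair. The reverse order, with mice 3 and 4 both below, held for *Gbp2*, *Gbp3* and *Igtp* (7.5% of the 40, against 22.3% of all genes), and all 3 are GTPase genes strongly induced by interferon gamma. *Gbp2* stood at 131, 116, 67.0 and 90.4 and *Igtp* at 49.9, 47.0, 28.9 and 40.7. *Cxcl9*, a chemokine gene induced by interferon gamma that is not among the 40, followed *Gbp2* with 29.5, 24.8, 8.74 and 11.6 CPM. The summed level of 7 T cell markers was 139, 110, 72.0 and 70.2 CPM in these mice, also lower in mice 3 and 4. So were those of 3 Langerhans cell markers, at 245, 193, 161 and 140 CPM, and of 4 conventional dendritic cell markers, at 79.3, 80.0, 68.2 and 65.2. *Epcam* was the largest part of the Langerhans cell sum, at 159, 128, 106 and 70.6. *Cd1d1* of the same list was highest in mouse 4, at 44.8, 34.8, 26.7 and 46.6. The 8 monocyte and macrophage markers summed to 1639, 1429, 1623 and 2309 CPM, and 2 of them were higher in mice 3 and 4, *Mrc1* at 252, 256, 391 and 426 and *C1qa* at 149, 113, 172 and 256. The part of these cell types in either order was not tested. For the 40 genes and the lists beside them, most counts of calls that use the no-UVB females are therefore also given without mice 3 and 4, an alternative chosen after the values were seen.

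**Figure D2:**
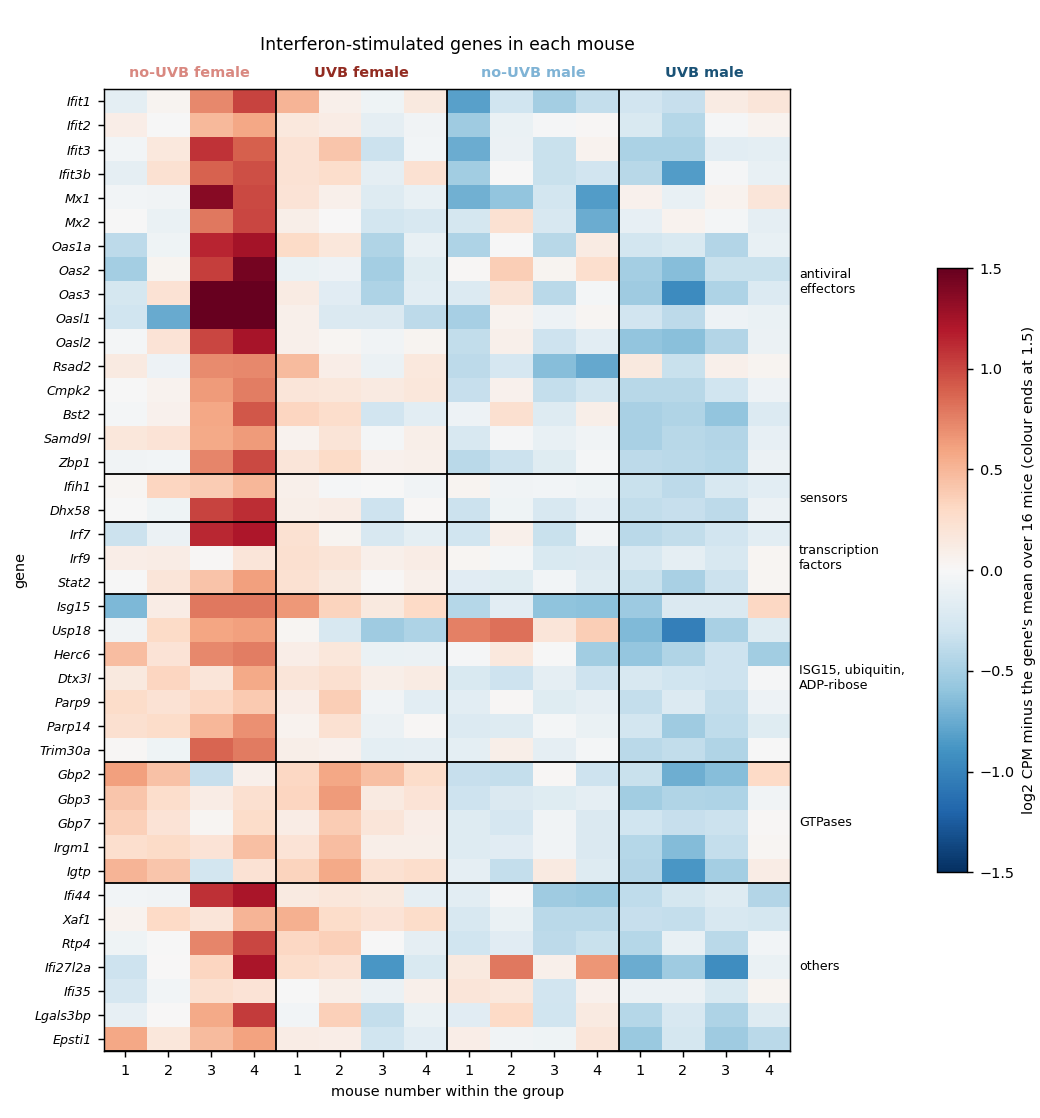
Colour gives log2 CPM minus the gene's mean over the 16 mice (colours end at 1.5) for the 40 genes (rows, by role) in each mouse (columns, by group). No-UVB female mice 3 and 4 are the reddest columns, with mean deviations of 0.63 and 0.80 over the 40 genes, and the GTPase rows do not share that pattern.

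Averaged over the 40 genes, the deviation from the mean of all mice was 0.02, 0.10, 0.63 and 0.80 on the log2 scale in no-UVB females and 0.19, 0.19, -0.11 and -0.01 in UVB females. In males it was -0.23, -0.02, -0.21 and -0.16 without UVB and -0.38, -0.42, -0.32 and -0.08 after UVB. Males thus lay below the mean of all mice in 8 of 8 libraries, and so did UVB female mice 3 and 4. No-UVB female mice 3 and 4 raise that mean, so values close to it, such as -0.02 and -0.08 in males, depend on these mice. In whole tissue, fewer cells of a type and less RNA per cell cannot be told apart, and this holds for every level given here.

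The first comparison asked how UVB changed these genes in males. More of them fell than rose: 12 were lower and 3 higher at an adjusted p under 0.1 (edgeR's quasi-likelihood test, Benjamini-Hochberg over all 16535 genes tested). Among all genes, 30.5% were lower and 29.0% higher by the same rule, so that 12 of 40 is near the background while 3 of 40 is below it. Without UVB male 4, 19 of the 40 were lower, against 29.1% of all genes. The 40 had a median of -0.10 on the log2 scale, against -0.02 over all genes. Markers of other cell types moved in the same mice: 6 of 7 for T cells, 4 of 4 for conventional dendritic cells, 4 of 4 for fibroblasts and 4 of 4 for skeletal muscle were lower after UVB, and 5 of 6 for neutrophils and 4 of 5 for keratinocytes were higher. The remaining T cell marker, *Cd4*, was called higher. Of 8 monocyte and macrophage markers, 3 were lower and 2 higher, and of 3 Langerhans cell markers, 1 was lower and 1 higher. The part of these cell types in the changes of the 40 genes was not tested.

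The genes that rose in males were all antiviral effectors. *Mx1* (ENSMUSG00000000386.17, chr16:97248235-97264107, minus strand), a dynamin-like GTPase that blocks influenza virus and is defective in most laboratory strains, stood at 4.94, 5.43, 6.93 and 4.53 CPM in no-UVB males and at 8.88, 7.79, 8.76 and 9.70 in UVB males. Every irradiated male was above every unirradiated male, and the log2 fold change was 0.70 ± 0.139 (SE, adjusted p = 0.00147). *Rsad2* (ENSMUSG00000020641.17, chr12:26492745-26506451, minus strand) encodes viperin, which makes a chain-terminating nucleotide. It stood at 8.06, 8.93, 6.71 and 6.14 CPM without UVB and 12.0, 8.42, 11.4 and 11.1 after it, with UVB mouse 2 inside the range of the controls, and rose by 0.55 ± 0.143 (SE, adjusted p = 0.00762). *Cmpk2*, the neighbour that supplies the substrate of viperin and starts 12752 bases from *Rsad2* on the other strand, did not share this, at -0.06 ± 0.123 (SE, adjusted p = 0.691). *Ifit1* (ENSMUSG00000034459.9, chr19:34618271-34632174, plus strand), which binds viral RNA that lacks the host's cap, stood at 8.57, 12.5, 10.7 and 12.0 CPM without UVB and 12.6, 12.1, 16.9 and 17.5 after it. The ranges overlapped, and the log2 fold change was 0.46 ± 0.151 (SE, adjusted p = 0.0257). Its relatives *Ifit2*, *Ifit3* and *Ifit3b* were not called, at 0.02, -0.04 and -0.01.

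*Usp18* had the largest fall in males and was the 1 called gene of the 40 past a log2 fold change of 1, a size that 3.31% of all genes fell by and 4.08% rose by. *Usp18* (ENSMUSG00000030107.11, chr6:121222848-121247877, plus strand) removes ISG15 from proteins and damps the type I interferon receptor. It stood at 20.2, 21.2, 13.4 and 15.3 CPM in no-UVB males and 7.19, 5.49, 8.18 and 10.2 in UVB males, with no overlap, and changed by -1.15 ± 0.195 (SE, adjusted p = 0.000768). *Ifi27l2a* stood at 51.3, 80.4, 49.0 and 73.6 CPM without UVB and 27.4, 31.8, 24.1 and 43.2 after it. Here too the groups were apart, and the change was -0.99 ± 0.222 (SE, adjusted p = 0.00603). *Oas2* stood at 15.3, 19.7, 15.6 and 18.2 CPM and then 10.5, 9.57, 11.9 and 11.9, without overlap, a change of -0.62 ± 0.109 (SE, adjusted p = 0.000632). *Epsti1* fell by 0.48 and *Bst2* by 0.44, both without overlap, *Oas3* by 0.43, *Herc6* by 0.41 and *Lgals3bp* by 0.32. *Samd9l*, a brake on translation in infected cells, the RNA sensor *Ifih1*, the TRIM family gene *Trim30a* and the ADP-ribosyltransferase gene *Parp14* fell by 0.24, 0.23, 0.23 and 0.19. The 3 transcription factors and the 5 GTPases did not pass the test, at -0.14 for *Irf7*, -0.01 for *Irf9*, -0.10 for *Stat2* and -0.24 to -0.03 for the GTPases. *Isg15* had the highest value among those not called, at 8.43, 10.3, 7.41 and 7.28 CPM without UVB and 7.72, 9.83, 9.77 and 14.4 after it, a log2 fold change of 0.33 ± 0.184 (SE, adjusted p = 0.155). Of the 15 calls in males, 10 held in each of the 8 fits that left out 1 mouse. The exceptions were called in fewer of the 8 fits: *Oas3* in 4 (adjusted p up to 0.209, without no-UVB male 2), *Herc6* in 6 (adjusted p up to 0.13, without no-UVB male 2), *Parp14* in 4 (adjusted p up to 0.204, without no-UVB male 3), *Trim30a* in 3 (adjusted p up to 0.221, without no-UVB male 2) and *Lgals3bp* in 4 (adjusted p up to 0.152, without no-UVB male 2).

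The same comparison in females gave 8 genes lower after UVB and 0 higher, with a median of -0.36 against 0.0025 over all 16883 genes tested. Of all genes, 10.6% were lower and 12.8% higher. At an unadjusted p under 0.05, edgeR also had 0 of the 40 higher, and DESeq2 called 0 higher and 12 lower. Of the markers, 3 of 7 for T cells, 2 of 4 for conventional dendritic cells, 1 of 4 for fibroblasts and 0 of 4 for skeletal muscle were lower after UVB in females, and 2 of 5 for neutrophils and 3 of 5 for keratinocytes were higher. Without no-UVB female mice 3 and 4 these counts were 4, 3, 0 and 0 lower and 2 and 2 higher. *Oas3* (ENSMUSG00000032661.10, chr5:120891163-120915729, minus strand) changed the most and was the 1 called gene past a log2 fold change of 1, a size past which 1.08% of all genes fell and 1.63% rose. *Oasl1*, also past that size, was not called, at -1.16 ± 0.531 (SE, adjusted p = 0.175). For *Oas3*, UVB females stood at 7.10, 5.70, 4.54 and 5.72 CPM, against the split controls given above, and the change was -1.28 ± 0.429 (SE, adjusted p = 0.0742). UVB-irradiated females thus overlapped with control mice 1 and 2 and lay far below control mice 3 and 4. *Usp18* stood at 11.3, 14.4, 17.9 and 18.2 CPM without UVB and 12.0, 9.81, 7.93 and 8.37 after it. Only UVB mouse 1 reached into the range of the controls, and the change was -0.69 ± 0.177 (SE, adjusted p = 0.0255). *Oasl2*, at 34.1, 40.03, 70.1 and 82.2 CPM without UVB and 36.5, 35.4, 33.4 and 35.8 after it, changed by -0.68 ± 0.25 (SE, adjusted p = 0.098), with the UVB mice in the range of controls 1 and 2 or just below it. *Herc6* fell by 0.55, *Epsti1* by 0.52 and *Parp14* by 0.37, each without overlap between the groups, *Samd9l* by 0.33 and *Ifih1* by 0.31.

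None of these calls remained without control mice 3 and 4. In that fit 0 of the 40 genes were higher or lower, with 1 higher and 2 lower at an unadjusted p under 0.05, and the median was 0.03. Of all genes, 5.90% were higher and 6.32% lower in that fit. The values of 22 of the 40 turned direction, none of them called in either fit, and *Oasl1* was then at 0.39, *Oas1a* at 0.24 and *Mx1* at 0.06. *Usp18* was then at -0.43 ± 0.18 (SE, adjusted p = 0.19), *Epsti1* at -0.44 ± 0.157 (SE, adjusted p = 0.133) and *Oas3* at -0.15 ± 0.208 (SE, adjusted p = 0.707). The number lower also moved by over 1.5 times when 1 mouse was left out: it was 20 without control mouse 1, 15 without control mouse 2 and 3 without control mouse 3 or without control mouse 4, against 10.1%, 8.00%, 8.18% and 8.19% of all genes in these fits. It was 4 without UVB mouse 1 and 3 without UVB mouse 3 or without UVB mouse 4, against 7.46%, 7.09% and 7.55% of all genes. *Usp18*, *Herc6* and *Epsti1* were called in all 8 of these fits, *Oas3* in 2 (adjusted p up to 0.196, without no-UVB female 4), *Oasl2* in 2 (adjusted p up to 0.234, without no-UVB female 4), *Samd9l* in 3 (adjusted p up to 0.178, without no-UVB female 3), *Ifih1* in 3 (adjusted p up to 0.124, without no-UVB female 4) and *Parp14* in 3 (adjusted p up to 0.123, without UVB female 3). Of the 8 genes lower in females, 7 were also lower in males (87.5% of the female and 58.3% of the male list), namely *Oas3*, *Usp18*, *Herc6*, *Epsti1*, *Parp14*, *Samd9l* and *Ifih1*. Over all genes the corresponding shares were 83.8% and 29.7%, and the sexes share no mice.

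**Figure D3:**
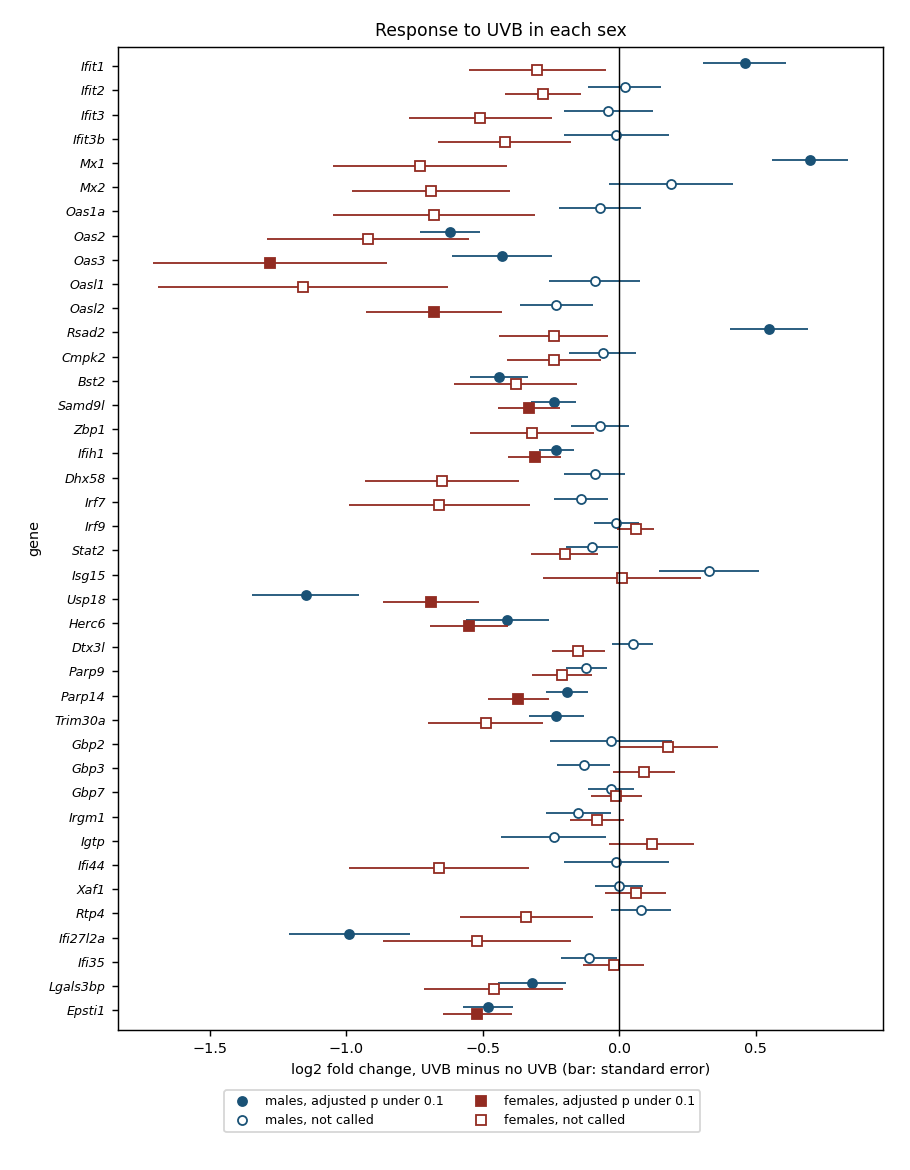
Log2 fold change after UVB (horizontal axis, bars give the standard error) for each of the 40 genes (vertical axis) in males (circles) and females (squares), filled where the adjusted p was under 0.1. *Usp18* lies left of 0 in both sexes, *Mx1*, *Rsad2* and *Ifit1* lie right of it in males and left of it in females, and most female values carry the wider bars.

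Whether the sexes responded differently was tested as the interaction of UVB and sex over all 16 mice. *Mx1* was the 1 gene that passed, with a response higher in males by 1.42 ± 0.388 (SE, adjusted p = 0.0611). No gene passed with a lower response in males. At an unadjusted p under 0.05, 4 were higher and 0 lower, and DESeq2 called 2 higher and 0 lower. Of all 17406 genes, 2.75% had a higher and 4.25% a lower response in males, and the median of the 40 was 0.18 against -0.02 over all genes. That median turned to -0.13 without no-UVB female mice 3 and 4. *Mx1* stood at 8.19, 8.12, 22.5 and 17.4 CPM in no-UVB females and 9.83, 8.94, 7.33 and 7.81 in UVB females. In males it was low before UVB and reached the level of irradiated females after it. Without control female mice 3 and 4 the difference for *Mx1* was 0.64 ± 0.207 (SE, adjusted p = 0.104) and 0 genes passed, with 1 higher and 4 lower at an unadjusted p under 0.05, at a background of 2.59% higher and 3.96% lower. The call was also lost without UVB male 1 or without no-UVB male 1, 2 or 4. *Rsad2* and *Ifit1*, which like *Mx1* rose in males, were at 0.77 ± 0.264 (SE, adjusted p = 0.114) and 0.74 ± 0.327 (SE, adjusted p = 0.209). Larger than both, and not called either, were *Oasl1* at 1.05, *Mx2* at 0.88 and *Oas3* at 0.83, which without those females were at -0.48, 0.25 and -0.27. In all, 23 of the 40 differences turned direction in that fit, none of them called in either fit.

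**Figure D4:**
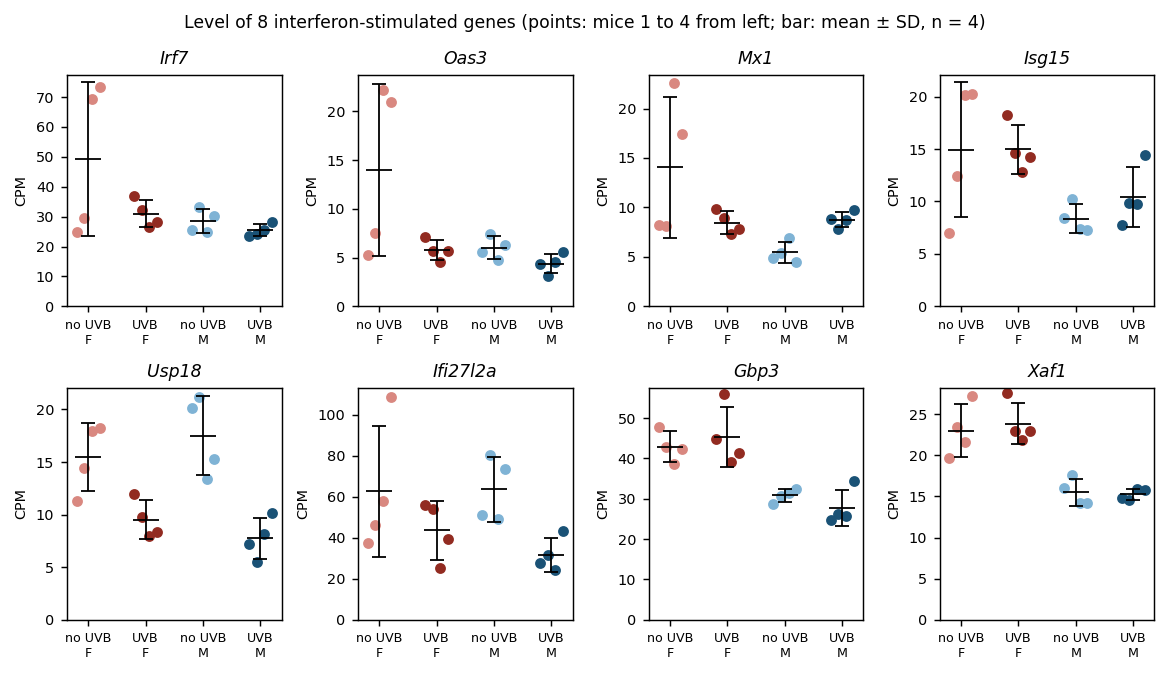
CPM of 8 genes (vertical axes, from 0) in each mouse of the 4 groups (F, females; M, males), with points for mice 1 to 4 from left and bars for the mean ± SD (n = 4). *Irf7* and *Oas3* are high only in no-UVB female mice 3 and 4 of the 16, *Usp18* is lower after UVB in both sexes, and *Gbp3* and *Xaf1* are lower in males than in females with and without UVB.

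More of the genes differed between the sexes. In unirradiated skin, 29 of the 40 genes were lower in males than in females and 0 were higher, at a background of 4.58% lower and 7.21% higher. Also at an unadjusted p under 0.05 edgeR had 0 higher, as had DESeq2 at its adjusted p. The median was -0.56, against 0.0016 over all genes. Every male was below every female for 15 of the 40 genes, which 5.17% of all genes showed. With a log2 fold change past 1 as well, 3 of the 29 were left, *Mx1*, *Oas3* and *Ifi44*, at a background of 0.781% lower. By role, 12 of 16 antiviral effectors, 2 of 2 sensors, 2 of 3 transcription factors, 6 of 7 modifier genes, 3 of 5 GTPases and 4 of 7 others were lower.

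*Mx1* showed the largest difference, -1.36 ± 0.276 (SE, adjusted p = 0.00699), with the 4 males at 4.53 to 6.93 CPM and the females at 8.12 to 22.5. *Oas3* came next, at -1.22 ± 0.366 (SE, adjusted p = 0.0575), although its male range of 4.77 to 7.46 CPM held female mouse 1. *Ifi44*, a gene induced by type I interferon, stood at 2.52, 2.81, 1.82 and 1.78 CPM in males and 2.77, 2.74, 6.65 and 7.33 in females, a difference of -1.12 ± 0.284 (SE, adjusted p = 0.0241), with male 2 just above female mice 1 and 2. Of the *Ifit* family, *Ifit1* differed by -0.998 ± 0.233 (SE, adjusted p = 0.0162) without overlap. *Ifit3*, at 14.9, 23.8, 20.1 and 26.4 CPM in males and 24.6, 28.4, 54.6 and 47.9 in females, differed by -0.87 ± 0.246 (SE, adjusted p = 0.043) with overlap. *Ifit3b* was at 4.15, 6.17, 4.81 and 4.99 CPM in males and 5.59, 7.37, 11.9 and 12.6 in females, with a difference of -0.90 ± 0.236 (SE, adjusted p = 0.0296). These 2 neighbours are near-identical copies, so the level of each is uncertain. *Rsad2* was at 6.14 to 8.93 CPM in males and 10.2 to 18.0 in females, without overlap, a difference of -0.95 ± 0.189 (SE, adjusted p = 0.00521).

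*Stat2* (ENSMUSG00000040033.17, chr10:128106352-128128735, plus strand), a subunit of the factor that binds the ISRE, stood at 56.0, 55.5, 61.3 and 55.2 CPM in no-UVB males and 62.9, 71.9, 85.3 and 96.8 in no-UVB females. All males were below all females, with a difference of -0.47 ± 0.118 (SE, adjusted p = 0.0217). *Irf9*, its DNA-binding partner, differed by -0.21 ± 0.0749 (SE, adjusted p = 0.0939). *Irf7* (ENSMUSG00000025498.16, chr7:140842619-140846398, minus strand) did not pass, at -0.79 ± 0.281 (SE, adjusted p = 0.105), and its 4 males at 25.5, 33.2, 24.7 and 30.3 CPM overlapped with female mice 1 and 2. *Isg15* (ENSMUSG00000035692.8, chr4:156283883-156285303, minus strand) stood at 8.43, 10.3, 7.41 and 7.28 CPM in males and 6.97, 12.4, 20.1 and 20.2 in females, with female mouse 1 below all males, and differed by -0.84 ± 0.276 (SE, adjusted p = 0.0802). *Dtx3l* and *Parp9* encode partners in ubiquitin and ADP-ribose signalling and start 681 bases apart on opposite strands. *Dtx3l* was at 38.5, 36.2, 41.0 and 36.4 CPM in males and 49.9, 56.4, 51.1 and 67.2 in females, a difference of -0.56 ± 0.0891 (SE, adjusted p = 0.000912). It had the lowest adjusted p of the 40 here, and *Parp9* differed by -0.42 ± 0.0983 (SE, adjusted p = 0.0155), both without overlap. *Oasl2* at -0.89, *Dhx58* at -0.84, *Mx2* at -0.83, *Rtp4* at -0.81, *Zbp1* at -0.72, *Herc6* at -0.66 and *Cmpk2* at -0.64 were also lower in males. So were *Parp14* at -0.57, *Xaf1* at -0.56, *Samd9l* and *Trim30a* at -0.52, *Gbp3* at -0.48, *Ifit2* and *Irgm1* at -0.46, *Epsti1* at -0.43, *Gbp7* at -0.40 and *Ifih1* at -0.35. The 11 genes not called were *Irf7*, *Oas1a* (-0.87), *Oas2* (-0.53), *Oasl1* (-1.08), *Bst2* (-0.42), *Gbp2* (-0.48), *Igtp* (-0.37), *Lgals3bp* (-0.44), *Ifi35* (-0.01), *Ifi27l2a* (0.02) and *Usp18* (0.18).

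Of the 29 calls, 22 held in each of the 16 fits without 1 mouse, and the others were called in fewer of them: *Ifit2* in 12 (adjusted p up to 0.184, without no-UVB male 1), *Ifit3* in 14 (adjusted p up to 0.12, without no-UVB male 1), *Mx2* in 11 (adjusted p up to 0.189, without no-UVB male 4), *Oas3* in 11 (adjusted p up to 0.151, without no-UVB female 3), *Irf9* in 8 (adjusted p up to 0.238, without no-UVB male 4), *Isg15* in 9 (adjusted p up to 0.188, without no-UVB female 3) and *Trim30a* in 6 (adjusted p up to 0.23, without no-UVB female 3). Without female mice 3 and 4, 12 genes were lower in unirradiated males, 10 of them among the 29, at a background of 5.24% lower, and the median was -0.28. At an unadjusted p under 0.05, edgeR had 1 higher and 19 lower in that fit. The 10 were *Mx1*, *Rsad2*, *Samd9l*, *Dtx3l*, *Parp9*, *Parp14*, *Gbp3*, *Gbp7*, *Irgm1* and *Xaf1*, and *Gbp2* and *Igtp* were added. *Gbp2* had the largest difference of the 12, at -0.79, so none of them passed a log2 fold change of 1. *Mx1* then differed by -0.59 ± 0.161 (SE, adjusted p = 0.0363) and *Dtx3l* by -0.50 ± 0.0893 (SE, adjusted p = 0.0033), whereas *Oas3* was at -0.12 ± 0.221 (SE, adjusted p = 0.833) and *Stat2* at -0.26 ± 0.111 (SE, adjusted p = 0.194).

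After UVB, 18 of the 40 genes were lower in males than in females and 0 were higher, at a background of 12.5% lower and 12.8% higher. Again 0 were higher at an unadjusted p under 0.05 or in DESeq2. None of the 18 passed a log2 fold change of 1, a size past which 1.47% of all genes were lower. The median was -0.39, against -0.0057 over all genes, and every male was below every female for 15 genes, an order held by 9.76% of all genes. All 5 GTPases were lower. *Igtp* (ENSMUSG00000078853.9, chr11:58089840-58098417, plus strand) encodes an immunity-related GTPase that works at the vacuole of intracellular parasites. *Igtp* stood at 25.7, 18.9, 24.5 and 37.8 CPM in UVB males and 44.4, 52.1, 40.9 and 42.1 in UVB females, a difference of -0.75 ± 0.191 (SE, adjusted p = 0.0161). *Gbp3*, which encodes a guanylate-binding protein, stood at 24.7, 26.1, 25.8 and 34.4 CPM in males and 44.9, 55.9, 39.2 and 41.4 in females. Neither gene's groups overlapped, and the difference for *Gbp3* was -0.71 ± 0.114 (SE, adjusted p = 0.000976). *Gbp2* (ENSMUSG00000028270.13, chr3:142326349-142343779, plus strand) stood at 67.9, 51.1, 54.6 and 105 CPM in males, with male 4 inside the female range of 104 to 128, and differed by -0.71 ± 0.219 (SE, adjusted p = 0.0385). *Irgm1* at -0.56 and *Gbp7* at -0.43 completed the class.

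*Xaf1*, which promotes cell death, stood at 14.8, 14.6, 15.9 and 15.7 CPM in UVB males and 27.5, 23.0, 21.9 and 23.0 in UVB females, a difference of -0.64 ± 0.103 (SE, adjusted p = 0.000978). *Stat2* was also lower in males, with a difference of -0.39 ± 0.118 (SE, adjusted p = 0.0328), and *Irf9* with one of -0.30 ± 0.075 (SE, adjusted p = 0.0131). *Herc6* at -0.53, *Bst2* at -0.50, *Cmpk2* and *Zbp1* at -0.48, *Samd9l* at -0.44, *Parp14* and *Epsti1* at -0.40, *Dtx3l* at -0.38, *Parp9* at -0.33 and *Ifih1* at -0.29 were the remaining genes called lower. *Mx1* and *Mx2* were both at 0.05, with standard errors of 0.273 and 0.278. *Isg15* at -0.53 ± 0.273 (SE, adjusted p = 0.195), *Oasl2* at -0.45 ± 0.227 (SE, adjusted p = 0.183) and *Ifit3b* at -0.50 ± 0.24 (SE, adjusted p = 0.161) did not pass. *Usp18*, *Rsad2*, *Ifit1*, *Ifit3*, *Oas3* and *Irf7* did not pass either, at -0.29, -0.18, -0.25, -0.41, -0.39 and -0.29. Of the 18 calls, 13 held in each of the 16 fits without 1 mouse, and the others were called in fewer: *Cmpk2* in 13 (adjusted p up to 0.129, without UVB male 1), *Bst2* in 6 (adjusted p up to 0.241, without UVB female 1), *Zbp1* in 5 (adjusted p up to 0.204, without UVB female 2), *Stat2* in 15 (adjusted p up to 0.101, without UVB male 2) and *Gbp2* in 14 (adjusted p up to 0.108, without UVB male 2). Without no-UVB female mice 3 and 4, which belong to neither group compared here, 26 genes were lower in males, the 18 among them, at a background of 13.5% lower.

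The comparisons of the sexes without and after UVB share no mice. Of the 40 genes, 15 were lower in males in both, which was 51.7% of the list without UVB and 83.3% of that after UVB. For all genes the corresponding shares were 52.1% and 19.1%. The 15 were *Samd9l*, *Cmpk2*, *Zbp1*, *Ifih1*, *Irf9*, *Stat2*, *Herc6*, *Dtx3l*, *Parp9*, *Parp14*, *Gbp3*, *Gbp7*, *Irgm1*, *Xaf1* and *Epsti1*. Another 14 were lower only without UVB by these calls, 3 (*Bst2*, *Gbp2* and *Igtp*) only after it, and 8 in neither. Without no-UVB female mice 3 and 4, 10 were lower in both (83.3% of the 12 and 38.5% of the 26), 8 of them among the 15, and over all genes the shares were 56.2% and 21.7%. That a call was made in 1 of the comparisons does not show that they differ, which only the interaction tests.

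**Figure D5:**
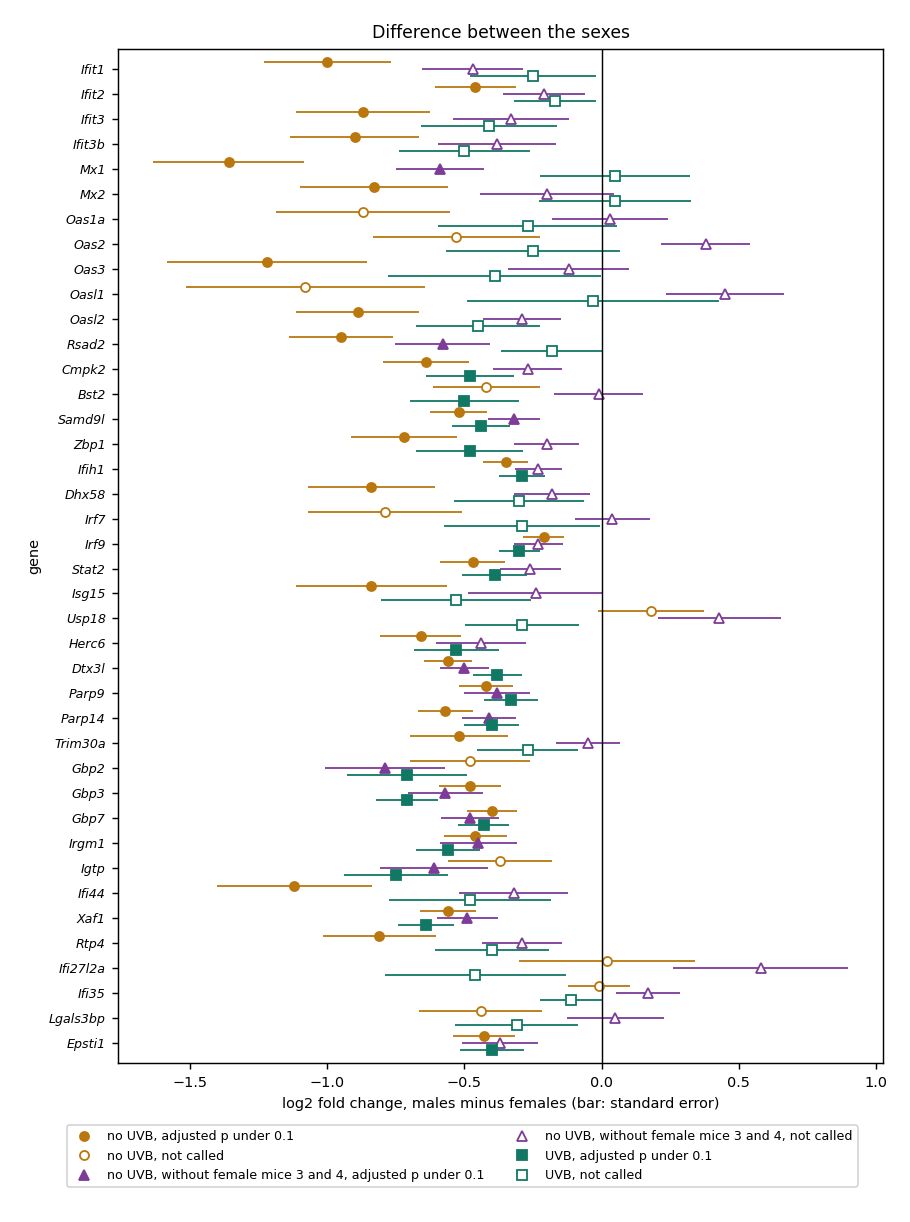
Log2 fold change of males against females (horizontal axis, bars give the standard error) for the 40 genes (vertical axis) without UVB (circles), without UVB and without female mice 3 and 4 (triangles) and after UVB (squares), filled where the adjusted p was under 0.1. The GTPases, *Dtx3l* and *Xaf1*, like most of the 40, keep their place left of 0 in all 3 fits, while *Irf7*, *Oas1a*, *Oas2*, *Oasl1*, *Lgals3bp* and *Ifi35* move to the right of 0 without mice 3 and 4.

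The other genes of the pathway were read in the same fits, where 4.58% of all genes were lower in males without UVB and 12.5% after it. Of 11 interferon genes, 10, all of type I or type III, were at or under 3 counts in every mouse, *Ifnb1* and *Ifnk* among them. *Ifng*, the gene of interferon gamma, had 3 to 26 counts per mouse. It was lower in UVB males than in UVB females, at -1.32 ± 0.431 (SE, adjusted p = 0.0432), and at -0.90 ± 0.398 (SE, adjusted p = 0.189) without UVB. Of 9 receptor and kinase genes, 1, *Jak2*, was lower in males without UVB at -0.22 and 0 were called after it. The type I receptor genes *Ifnar1* and *Ifnar2* were not called in any comparison. Of 9 transcription factor and inhibitor genes, 2 were lower in males without UVB and 4 after it, *Irf8* and *Socs1* in both. *Irf8*, a factor of dendritic cells and macrophages, was at -0.75 ± 0.164 (SE, adjusted p = 0.0104) and -0.63 ± 0.164 (SE, adjusted p = 0.0171), and the inhibitor *Socs1* at -0.62 ± 0.131 (SE, adjusted p = 0.00818) and -0.37 ± 0.131 (SE, adjusted p = 0.0637). Without no-UVB female mice 3 and 4, *Jak2*, *Irf8* and *Socs1* were still lower in unirradiated males, with 1 receptor or kinase gene and 3 transcription factor or inhibitor genes called, and *Ifng* then passed the test, at -1.36 ± 0.406 (SE, adjusted p = 0.0536).

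Of 11 sensor and adaptor genes tested, 3 were lower in males without UVB and 2 after it, with *Rigi*, a sensor of viral RNA, at -0.41 ± 0.0736 (SE, adjusted p = 0.00272) and -0.34 ± 0.0744 (SE, adjusted p = 0.00622). *Rigi* was also lower after UVB in both sexes, at -0.24 in males and -0.31 in females. Without no-UVB female mice 3 and 4, *Rigi* was the 1 gene of the 11 lower in unirradiated males, at -0.31 ± 0.08 (SE, adjusted p = 0.0249), and it was at -0.20 ± 0.0806 (SE, adjusted p = 0.172) after UVB in females, where the call was lost. Antigen presentation, a branch that interferon gamma induces, showed 0 of 9 genes called between the sexes without UVB and 7 of 9 lower in males after it, led by *Psmb9* at -0.56 ± 0.152 (SE, adjusted p = 0.0199) and *B2m* at -0.55 ± 0.125 (SE, adjusted p = 0.00832). All 9 were below 0 in both comparisons, with medians of -0.19 and -0.31, and 0 of the 9 passed the test of the interaction. In the fit without no-UVB female mice 3 and 4, 3 of the 9 were lower in unirradiated males. After UVB in males, 5 of these 9 genes fell, as did 30.5% of all genes. In females 0 were called, where 10.6% of all genes fell, or 1 lower without those mice. Of 3 interferon-induced chemokine genes tested, 0 were called between the sexes without UVB and 1 after it, *Ccl5*, at -1.47 ± 0.308 (SE, adjusted p = 0.00598). When those females were left out, 2 of 4 were lower in males without UVB and 3 of 4 after it.

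Markers of T cells, conventional dendritic cells, Langerhans cells and macrophages that passed the test between the sexes were lower in males, as were the called genes of the 40, whereas neutrophil markers were not. Of 7 T cell markers, 2 were lower in males without UVB and 5 after it, with *Cd3e* at -0.64 ± 0.169 (SE, adjusted p = 0.0286) and -0.997 ± 0.179 (SE, adjusted p = 0.00208). Their summed level was 70.2 to 139 CPM in no-UVB females, 55.0 to 74.3 in no-UVB males, 59.0 to 81.3 in UVB females and 35.4 to 50.1 in UVB males. Of 4 conventional dendritic cell markers, 3 were lower in males without UVB and all 4 after it, with *Xcr1* at -1.30 ± 0.279 (SE, adjusted p = 0.00921) and -1.83 ± 0.294 (SE, adjusted p = 0.00104). Their sum was 65.2 to 80.0 CPM in no-UVB females, 43.8 to 71.9 in no-UVB males, 52.2 to 63.1 in UVB females and 32.6 to 45.6 in UVB males. Of 3 Langerhans cell markers, 1 was lower in males without UVB and 2 after it, and of 8 monocyte and macrophage markers, 2 and then 1. None of 3 natural killer cell markers was called in either. With no-UVB female mice 3 and 4 left out, 5 T cell markers, 3 conventional dendritic cell markers, 2 Langerhans cell markers and 2 monocyte and macrophage markers were lower in unirradiated males. Of 4 markers of plasmacytoid dendritic cells, the specialised makers of type I interferon, *Klk1* was higher in males without UVB, at 3.34 ± 0.525 (SE, adjusted p = 0.000912), and *Cox6a2* lower after it, at -0.48 ± 0.122 (SE, adjusted p = 0.0147). After UVB, *Klk1*, *Ccr9* and *Cox6a2* fell in males, and in females *Ccr9* fell and *Cox6a2* rose, calls that were both lost without no-UVB female mice 3 and 4. *Klk1* remained higher in unirradiated males in that fit, at 3.78 ± 0.738 (SE, adjusted p = 0.00609). *Siglech*, the fourth, stood at 1.62 to 3.45 CPM and was not called in any comparison. *Cox6a2* stood far higher, at 52.0 to 103 CPM. All 4 skeletal muscle markers fell with it in males after UVB, and 0 of the 4 were called in females. The 4 genes listed for plasmacytoid dendritic cells did not move together, and whether these cells changed was not tested. Of 4 fibroblast markers, both collagen genes were higher in males without UVB, *Col1a1* by 2.55 ± 0.193 (SE, adjusted p = 3.8e-07) and *Col1a2* by 2.35 ± 0.175 (SE, adjusted p = 3.16e-07), while *Dcn* at 0.19 and *Pdgfra* at -0.28 were not called. Of 6 neutrophil markers tested, 0 were called between the sexes without UVB and 4 were higher in males after it. The 8 on the list summed to 10.2 to 16.3 CPM in unirradiated mice, 19.6 to 30.1 in UVB females and 54.1 to 161 in UVB males, and the 5 keratinocyte markers to 7995 to 14510, 12926 to 16760 and 22433 to 32535. The part of these cell types in the differences of the 40 genes was not tested.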

How the data were processed

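Polyadenylated RNA from dorsal skin of 16 mice, 4 in each group, was sequenced by the authors and aligned to GRCm39 with STAR, whose version is not given in the sources used here. They deposited whole-number read counts for each gene in each mouse, not normalized. The strand of the directional kit was used, and the other strand held 3.63 to 4.23% of gene reads. GENCODE M39 (GRCm39) names 54749 of the 55359 identifiers. No mouse was left out, and no pair of libraries in a group agreed within sampling noise (chi-square per degree of freedom 9.54 to 98.3).

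edgeR 4.0.16 (R 4.3.3) with filterByExpr, TMM and robust quasi-likelihood was fitted over the 8 mice of a sex for the response to UVB, and over all 16 mice for the interaction and the sexes. The adjusted p threshold was 0.1, as in the study, without its fold of 1 on the log2 scale. Alternatives were unstranded counts, DESeq2 1.42.0 with and without apeglm 1.24.0, other scalings, filters and thresholds, a replicate block and leaving out mice. CPM in plots carry a prior of 0.5 on the log2 scale. Fits were tested on simulated data. Start sites and sequences come from the GENCODE canonical transcripts and the GRCm39 genome. The genes with values in every mouse were up to 3 per direction and comparison with the largest called change, together with *Isg15*, *Irf7*, *Stat2*, *Ifit1*, *Ifit3*, *Ifit3b*, *Oasl2*, *Usp18* and *Rsad2*. *Oasl1*, *Dtx3l*, *Xaf1* and the values of single mice in other places were added after seeing the data. The members and lists were chosen with earlier results of these data known. The values of 1 gene of the pathway lists are not reported here.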

Additional observations from a re-analysis of the deposited data

Results flagged for a closer look

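In UVB males, mouse 4 stood apart above the other 3 in 6 genes by Dixon's criterion for 4 values: *Samd9l* at 47.1 CPM, *Zbp1* at 21.1, *Dhx58* at 8.08, *Trim30a* at 33.9, *Gbp3* at 34.4 and *Gbp7* at 48.6. In no-UVB males, mouse 3 stood apart above in *Stat2* at 61.3 CPM and *Gbp2* at 86.4. In UVB females, *Ifit3b* was apart below in mouse 3 at 5.61 CPM and *Ifi44* in mouse 4 at 2.56. These are 10 of 160 groups of 4 values examined, and about 1 in 20 such groups is marked by chance alone. The response of *Mx1* to UVB differed between the sexes by 1.42 in log2 units (interaction, adjusted p = 0.0611 in edgeR), with all 4 UVB males above all 4 no-UVB males, and no-UVB female mice 3 and 4 above all UVB females.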

How the results depend on the processing

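Leaving out no-UVB female mice 3 and 4, chosen after seeing the data, left 0 genes lower after UVB in females, 0 with a higher response in males and 12 lower in males without UVB. Of the 40 values, it turned 22 in the female response, 23 in the interaction and 6 between the sexes without UVB. Among the genes named by rule it turned the female response of *Irf7* to 0.20, *Stat2* to 0.04, *Ifit1* to 0.25, *Ifit3* to 0.05, *Ifit3b* to 0.11 and *Rsad2* to 0.15. It turned the interaction of *Isg15* to -0.30, *Irf7* to -0.33, *Stat2* to -0.14, *Ifit3* to -0.08, *Ifit3b* to -0.12 and *Oasl2* to -0.16, and the difference of the sexes without UVB in *Irf7* to 0.04. No turned value passed the test in either fit. With each mouse left out in turn, the genes lower in males numbered 23 to 32 without UVB and 13 to 20 after it, those lower after UVB 8 to 19 in males (19 without UVB male 4) and 3 to 20 in females, those higher after UVB in males 3 to 4, and those with a higher response in males 0 to 2.

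The 12 genes lower after UVB in males became 1, and the 3 higher became 0, with a log2 fold change past 1 in edgeR or with apeglm. A log2 fold change past 1 in edgeR, for these comparisons chosen after seeing the data, took the 29 genes lower in males without UVB to 3 and the 18 after UVB to 0. For the 8 lower in females a fold past 1 in edgeR and with apeglm gave 1 and 0, an adjusted p under 0.05 gave 4, and all 16 mice in 1 fit gave 15. The 1 gene with a higher response in males became 2 with DESeq2's size factors or Wald test, and 0 with all genes of at least 1 count or at an adjusted p under 0.05. Samples that share a number did not deviate together (correlations of -0.073 to 0.022 in males and -0.115 to 0.217 in females). A replicate block gave 4 genes lower after UVB in females and 26 and 17 lower in males without and after UVB, and moved no other count by over 1.5 times. Of the values of named genes under the alternatives, 552 kept direction and call, 40 lost and 21 gained the call, and 13 turned. Beside these, uncalled values near 0 changed sign when 1 mouse was left out. Among them were *Ifit3* in males (-0.17 to 0.08) and *Isg15* in females (-0.23 to 0.19). The cause of these changes was not tested.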
